A study of Mus musculus with 5375 samples.

Results

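The receptor side of the Wnt pathway was examined in single lung endothelial cells (ECs) and in 4T1 mouse breast tumor cells (TCs) sampled from the same model of lung metastasis. The set holds 9 of the 35351 genes in the count tables. They are the Frizzled receptors Fzd1, Fzd4, Fzd5, Fzd6, Fzd7 and Fzd8, the co-receptors Lrp5 and Lrp6, and Tspan12, a tetraspanin that assists Fzd4. The genes were chosen by symbol with measured levels over the EC days and TC groups in view, those of Fzd4 among them, and include 6 of the 10 Frizzled genes in the tables. Levels over days and TC groups are therefore given as a description. How many members each tool called in those comparisons is stated beside the share over all genes, and nothing is read from it. Members are tested in contrasts that played no part in the choice, namely between the capillary EC classes and between cycling and noncycling TCs. Other genes of the pathway are given with their tests in every comparison, from lists that were chosen with results over the days and TC groups known.

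Wild-type female BALB/c mice received 4T1-GFP cells, a BALB/c mammary carcinoma line carrying a green fluorescent protein and stained with the dilution dye CellTrace, through the tail vein. ECs were sorted as CD31+ cells lacking CD45, LYVE1, PDPN and TER119 from uninjected animals (day 0, 4 mice), 1.5 days after injection (3 mice) and 3.5 days after injection (3 mice). Of the day 0 mice, m1 and m2 were sorted with the day 1.5 animals, and m3 and m4 with the day 3.5 animals. TCs comprised intravascular and extravascular cells of the same 4 mice at 1.5 days, told apart by an antibody to H-2Kd given into the blood shortly before sampling, latent cells that had kept the dye at 3.5 days (4 mice), proliferative cells that had diluted it at 3.5 days, and 4T1 cells from culture that had never been injected. The proliferative cells were sorted from 4 mice alongside the latent cells, but the count columns do not tell these mice apart and the deposited annotation gives all of them 1 animal name. They were therefore treated as 1 pool with no replicate, as were the cultured cells, which have no animal. Each TC gate was also its own sequencing lane, and gate and lane cannot be told apart. The 4T1 cells are 1 established line, and their transcriptomes describe that line in lungs of its own mouse strain.

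Frizzled proteins are membrane receptors that bind Wnt ligands through an extracellular cysteine-rich domain. When a ligand joins a Frizzled to Lrp5 or Lrp6, the tail of the co-receptor is phosphorylated and holds Axin at the membrane, and beta-catenin is no longer degraded and enters the nucleus to act with TCF/LEF factors. Fzd4 also binds norrin, a ligand outside the Wnt family, and together with Lrp5 and Tspan12 it is known from the growth and barrier function of retinal and brain vessels. In lung, Wnt signals are exchanged among endothelium, epithelium and mesenchyme. Lung capillaries hold general capillary cells (gCap) and the larger, thin aerocytes (aCap) that line the gas exchange surface.

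In GENCODE vM21 on GRCm38, Fzd4 lies on the plus strand of chromosome 7 from 89404355 to 89413134 with 2 exons, and Tspan12 on the minus strand of chromosome 6 from 21771395 to 21852515 with 9 exons. Lrp5 lies on the minus strand of chromosome 19 from 3584828 to 3686564, and Lrp6 on the minus strand of chromosome 6 from 134446476 to 134566965, each with 23 exons. The promoter windows of Fzd4 and Tspan12 are printed because the 2 genes are partners in the norrin receptor and had fitted differences of opposite sign between the capillary classes, of which that of Tspan12 passed the test. Each window holds the 250 bases before the start of the gene in RefSeq (GRCm38.p6), read 5′ to 3′ on the strand of the gene. Capitals mark the TCF/LEF core CTTTG and the GC box GGGCGG on either strand, where overlapping matches run together.
Fzd4, plus strand, chr7:89404116-89404365: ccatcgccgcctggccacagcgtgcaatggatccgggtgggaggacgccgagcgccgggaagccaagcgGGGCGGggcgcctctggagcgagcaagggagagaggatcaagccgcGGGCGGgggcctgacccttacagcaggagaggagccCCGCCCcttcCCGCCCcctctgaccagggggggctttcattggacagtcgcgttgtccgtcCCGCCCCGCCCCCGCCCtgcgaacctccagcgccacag
Tspan12, minus strand, chr6:21852534-21852783: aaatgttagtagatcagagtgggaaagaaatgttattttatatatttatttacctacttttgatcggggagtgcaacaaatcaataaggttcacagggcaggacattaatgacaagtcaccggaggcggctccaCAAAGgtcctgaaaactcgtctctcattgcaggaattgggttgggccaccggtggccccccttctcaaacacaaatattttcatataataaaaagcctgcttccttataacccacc

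The Fzd4 window was 72.8% G or C with 25 CG pairs and 7 GC boxes, and it held no TCF/LEF core. Its G and C content was above that of 94.0% of 32851 promoter windows of the same length. The Tspan12 window was 42.0% G or C with 5 CG pairs, no GC box and 1 core, and its content was above that of 15.9% of windows. Across all windows the median was 52.4% G or C with 6 CG pairs, 48.6% of windows held a core and 32.7% held a GC box. Of the 9 members, 5 had an entry in the promoter table. The window of Fzd5 was 76.4% G or C with 9 GC boxes, that of Fzd7 was 65.2% with 6 GC boxes and 1 core, and that of Fzd1 was 51.2% with no GC box and 2 cores. These matches are letters in a window and carry no evidence of binding.

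The kept cells numbered 839, 941 and 699 ECs on days 0, 1.5 and 3.5, and 325 intravascular, 306 extravascular, 329 latent, 237 proliferative and 369 cultured TCs. Reads of all cells of an animal were summed, giving 75.6 to 129.5 M reads for each EC animal, 31.9 to 49.9 M for each TC animal library, 163.5 M for the proliferative pool and 92.1 M for the culture pool. Levels are given as CPM, the reads of a gene as a part of all reads of such a sum, and a share is the percentage of cells with at least 1 read of the gene. The libraries carried no molecular identifiers, so intervals cover counting error only. A cell had a median of 1951 to 2974 detected genes in the EC libraries and 5721 to 7145 in the TC libraries, and shares were therefore also taken after each cell was thinned to 100000 reads. The 8 endothelial marker genes summed to 14275 to 26270 CPM in EC animals and 20.9 to 62.9 CPM in TC libraries, and the 6 epithelial and 4T1 genes summed to 3.33 to 21.6 CPM in ECs and 2640 to 6291 CPM in TCs. The 3 lymphatic genes summed to 261 to 1111 CPM in the EC animals, sorted without LYVE1 protein, with Prox1 at 0 in 4 and Ccl21a at 0 in 7 of the 10, and the 10 immune genes to 1.61 to 49.9 CPM.

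Fzd4 was the Frizzled member with the highest level per kilobase in ECs on each day. Its level in the 4 day 0 animals was 191, 150, 164 and 88.7 CPM in m1 to m4. In the day 1.5 animals it was 56.5, 56.8 and 55.8 CPM, and in the day 3.5 animals it was 103 in m10, 148 in m11 and 50.04 CPM in m9. The day 1.5 animals all lay below the day 0 animals, while the day 3.5 animals spread across both ranges. The group means were 148 ± 43.2 CPM (SD, n = 4), 56.3 ± 0.519 CPM (SD, n = 3) and 100 ± 49.1 CPM (SD, n = 3). The fitted log2 difference from day 0 was −1.45 ± 0.38 (SE) on day 1.5 and −0.62 ± 0.37 on day 3.5. Against m1 and m2 alone, the day 0 animals of the same sort day, the day 1.5 difference was −1.65.

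The mean level of Fzd4 and the mean share of Fzd4-positive ECs were both lowest on day 1.5. The level was highest on day 0 and the share on day 3.5. Fzd4 reads were found in 28.7 ± 5.06% of day 0 ECs, 25.7 ± 4.95% of day 1.5 ECs and 37.2 ± 12.8% of day 3.5 ECs, and at 100000 reads per cell the shares were 21.5 ± 3.47%, 19.7 ± 3.50% and 32.6 ± 9.61% (SD over animals). A single cell held between 14.1% and 33.4% of an animal's Fzd4 reads. Without that cell in each animal the means were 111 ± 29.5, 43.6 ± 3.93 and 84.4 ± 42.6 CPM. On the mean deposited log values, where every cell counts alike and the scaling is to housekeeping genes, the differences from day 0 were −0.24 on day 1.5 and 0.60 on day 3.5, against medians of 0.20 and 0.22 over all genes in those fits. TCs held 0.202 to 1.09 CPM of Fzd4 as group means, with reads in 1.69% to 6.504% of cells.

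The other Frizzled members had lower levels per kilobase in the mean of each EC day and varied widely among animals of 1 day. Fzd6, a receptor best known from planar cell polarity, was at 16.6, 9.86, 0.814 and 5.03 CPM on day 0, at 3.51, 26.2 and 19.5 CPM on day 1.5, and at 7.78, 16.9 and 10.5 CPM in m10, m11 and m9 on day 3.5. These ranges overlapped between all days. Fzd8, a close relative of Fzd5, stood at 2.06, 3.58, 0.437 and 0.0365 CPM on day 0, at 1.76, 1.68 and 5.35 CPM on day 1.5, and at 15.8, 8.74 and 14.7 CPM on day 3.5. Its day 3.5 values lay above those of both other days, on reads from 6 of 839, 12 of 941 and 23 of 699 ECs. In the day 3.5 animals 1 cell held 67.5%, 87.2% and 88.3% of the Fzd8 reads, and without that cell the levels were 5.21, 1.13 and 1.73 CPM. The fitted log2 difference from day 0 was 3.03 ± 1.18 (SE) on day 3.5, with all cells in.

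Fzd1, Fzd5 and Fzd7 were close to absent from ECs apart from single cells. Fzd1 and Fzd7 are close relatives, and Fzd7 is known as a receptor of intestinal stem cells. Fzd1 lay between 0.0972 and 4.01 CPM on day 0, at 3.20, 11.4 and 2.90 CPM on day 1.5 and between 0.238 and 1.47 CPM on day 3.5. Fzd5 was at or below 0.0729 CPM in 3 of the 4 day 0 animals and at 13.9 CPM in m2, where 99.9% of the reads came from 1 cell. Fzd7 was at 3.69 CPM in the day 0 animal m1 and at most 1.09 CPM in the other EC animals. No fold is given for these genes, since a single cell set the level in most animals.

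The co-receptor Lrp5 was measured in more ECs than any other member. Its level was 100, 115, 69.4 and 99.7 CPM on day 0, 68.0, 52.4 and 96.5 CPM on day 1.5, and 86.1, 118 and 53.1 CPM in m10, m11 and m9 on day 3.5. The ranges overlapped on all days, with reads in 43.1 ± 4.64%, 44.2 ± 4.29% and 46.8 ± 8.19% of cells. The log2 difference from day 0 was −0.48 ± 0.35 on day 1.5 and −0.24 ± 0.34 on day 3.5 (SE). Lrp6 was at 90.3, 30.3, 23.1 and 45.5 CPM on day 0, at 28.5, 30.3 and 18.3 CPM on day 1.5, and at 40.9, 49.1 and 22.9 CPM on day 3.5. The ranges of all days overlapped, with m1 on day 0 the highest, and the share of Lrp6-positive cells was 26.8 ± 3.20%, 26.9 ± 5.06% and 31.6 ± 3.40%.

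The Tspan12 level overlapped between all days. It was at 12.1, 50.9, 44.4 and 28.2 CPM on day 0, at 15.2, 54.7 and 34.4 CPM on day 1.5, and at 33.1, 34.1 and 51.5 CPM on day 3.5. Each day held both lower and higher animals, and reads were found in 22.6 ± 3.47%, 21.8 ± 5.06% and 21.7 ± 6.28% of ECs. The log2 difference was −0.03 ± 0.56 on day 1.5 and 0.16 ± 0.56 on day 3.5 (SE). In the day comparisons edgeR called 0 of the 9 members at an adjusted p of 0.05, where 0% of 17585 genes passed on either day. DESeq2 called 1 member (Fzd4) on day 1.5, where it called 2.05% of the same genes, and 0 on day 3.5, where it called 2.7%. limma on the mean deposited log values called 0 of the 5 members it could test on both days, where it called 3.51% and 5.05% of 8636 genes.

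**Figure D1:**
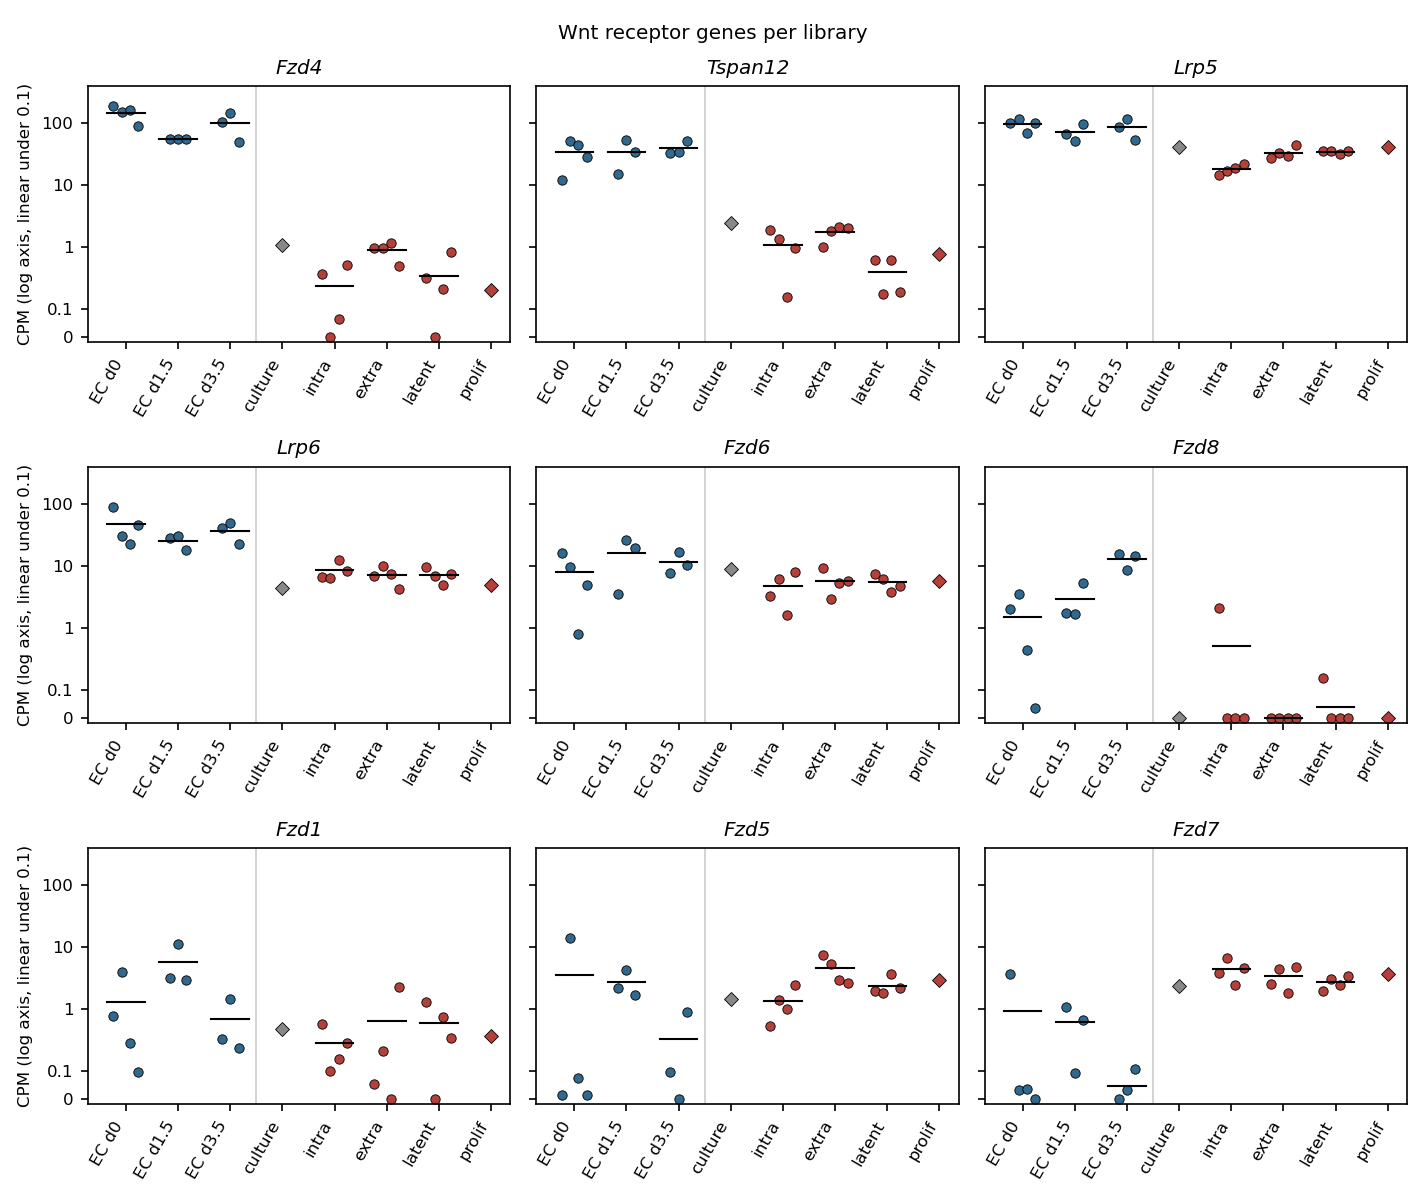
Level of each of the 9 genes in every library, in CPM on a log axis that is linear below 0.1. Circles are animals, diamonds the proliferative and culture pools and lines the group means. Fzd4 and Tspan12 lie high in the 3 EC groups and at most at 2.42 CPM in TCs, whereas Lrp5 and Fzd6 were read in every library.

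Levels between genes were compared per kilobase of transcript. On day 0 the order was Fzd4 at 22.1 ± 6.42 CPM per kb (SD, n = 4), Lrp5 at 18.6, Tspan12 at 13.6, Lrp6 at 5.05 and Fzd6 at 1.87, and the ranges of all neighbours in this order overlapped. On day 1.5 Lrp5 and Tspan12, both at 14.0 CPM per kb, stood ahead of Fzd4 at 8.38, whose range lay wholly above that of Fzd6 at 3.79. On day 3.5 Lrp5 at 16.6, Tspan12 at 15.9 and Fzd4 at 14.9 CPM per kb overlapped, and all 3 Fzd4 values lay above those of Lrp6 at 4.02. Fzd8 at 2.19 CPM per kb was then separated from Fzd1 at 0.162.

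In TCs the same set had another make-up, with Lrp5 first and several Frizzleds at similar low levels. Lrp5 was at 14.5, 17.2, 18.9 and 22.1 CPM in intravascular cells of m5 to m8 and at 27.3, 33.5, 29.1 and 44.6 CPM in extravascular cells of the same mice. In each of the 4 mice the extravascular value was the higher, and the ranges did not overlap. Latent cells held 32.0 to 35.9 CPM in 4 mice, within the extravascular range. The proliferative pool was at 41.4 CPM (95% exact Poisson interval 40.4 to 42.4) and the culture pool at 42.0 CPM (40.7 to 43.4). The fitted log2 difference of Lrp5 was 0.81 ± 0.18 (SE) between extravascular and intravascular cells, −0.09 ± 0.18 between latent and extravascular cells and −0.26 ± 0.28 between latent and proliferative cells.

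Most TCs had Lrp5 reads, in 77.2 ± 2.86% of intravascular, 81.0 ± 2.36% of extravascular and 73.9 ± 3.06% of latent cells (SD, n = 4), and in 85.2% of proliferative and 82.4% of cultured cells. At 100000 reads per cell the shares were 51.3 ± 3.17%, 57.6 ± 3.35%, 55.9 ± 3.97%, 61.1% and 74.0%. Lrp6 was at 8.59 ± 2.85 CPM in intravascular, 7.17 ± 2.35 CPM in extravascular and 7.28 ± 1.98 CPM in latent cells, 5.03 CPM in proliferative and 4.37 CPM in cultured cells. The 3 animal groups overlapped in Lrp6. Per kilobase, Lrp5 stood at 3.52, 6.52, 6.76 and 8.14 CPM per kb in intravascular, extravascular, latent and cultured cells, and in none of these groups did its range reach that of Fzd6, the next member, at 1.10, 1.34, 1.29 and 2.06 CPM per kb.

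Among the Frizzled members, Fzd6, Fzd7 and Fzd5 had the highest levels per kilobase in TCs. Fzd6 was at 4.76 ± 2.88, 5.81 ± 2.57 and 5.60 ± 1.61 CPM in intravascular, extravascular and latent cells (SD, n = 4), with reads in 26.0% to 39.2% of the cells of the 5 groups. Fzd7 was at 4.39 ± 1.80, 3.42 ± 1.49 and 2.73 ± 0.654 CPM in the same order, with reads in 14.4% to 28.7% of cells. Fzd5 was at 0.532, 1.40, 1.02 and 2.49 CPM in intravascular cells of m5 to m8 and at 7.55, 5.26, 2.92 and 2.68 CPM in their extravascular cells. The extravascular value was higher in each mouse and the ranges did not overlap, with a log2 difference of 1.69 ± 0.50 (SE). On the mean deposited log values, where every cell counts alike, the difference was 0.15 ± 0.14. Latent cells held 1.93, 1.83, 3.63 and 2.16 CPM of Fzd5 in m10, m11, m12 and m9, which overlapped both groups. The pools held 2.93 CPM (proliferative) and 1.45 CPM (culture).

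Fzd1 and Fzd8 had almost no reads in TCs. Fzd1 was at 0.280 to 0.635 CPM as group means. Fzd8 was read in 1 intravascular cell of m5 and in 1 latent cell of m10 and was at 0 in every other TC library, so no fold is given. Tspan12 was at 1.10 ± 0.734 CPM in intravascular and 1.73 ± 0.5003 CPM in extravascular cells (SD, n = 4). In latent cells it was at 0.623, 0.172, 0.621 and 0.188 CPM, below the lowest extravascular value of 1.01 CPM, and the log2 difference was −2.23 ± 0.69 (SE) on reads from 19 of 329 latent and 32 of 306 extravascular cells. The proliferative pool held 0.777 CPM and the culture pool 2.42 CPM of Tspan12. The endothelial marker sum was 20.9 to 29.2 CPM in extravascular and 24.1 to 62.9 CPM in latent libraries, and its part in the Tspan12 values was not tested. Between TC groups edgeR called 0 of the 9 members, where 0.951% of 19249 genes passed between extravascular and intravascular cells (0.416% higher and 0.535% lower), 8.57% between latent and extravascular cells (3.6% higher and 4.97% lower) and 0% between latent and proliferative cells. DESeq2 called 2 members between extravascular and intravascular cells (Lrp5 and Fzd5), where it called 6.89% of the same genes, 1 between latent and extravascular cells (Tspan12), where it called 14%, and 0 between latent and proliferative cells, where it called 0.462%. limma called 0 of the 5 members it could test in each of these comparisons, Tspan12 not among them, where it called 16.6%, 42.8% and 1.09% of 12128 genes. The extravascular and intravascular fractions came from the same mice, and with the mouse as a block the 183 genes called fell to 1. The 2 comparisons with extravascular cells share those libraries.

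Reads of a Frizzled and of a co-receptor were found together in a part of the cells. A Frizzled member and Lrp5 or Lrp6 were both read in 22.8%, 23.7% and 31.9% of ECs on days 0, 1.5 and 3.5, and in 45.4% of intravascular, 40.1% of extravascular, 46.9% of latent, 58.2% of proliferative and 42.3% of cultured TCs. At 100000 reads per cell these shares were 13.9%, 14.7% and 24.9% in ECs and 22.4% to 29.9% in TCs. Single animals of ECs and TCs overlapped before thinning, with up to 41.4% in a day 3.5 EC animal and 30.0% in an intravascular library, and after thinning the group means overlapped as well. An Lrp5 or Lrp6 read was the more common part, in 55.6% to 62.0% of ECs and 83.0% to 90.7% of TCs.

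**Figure D2:**
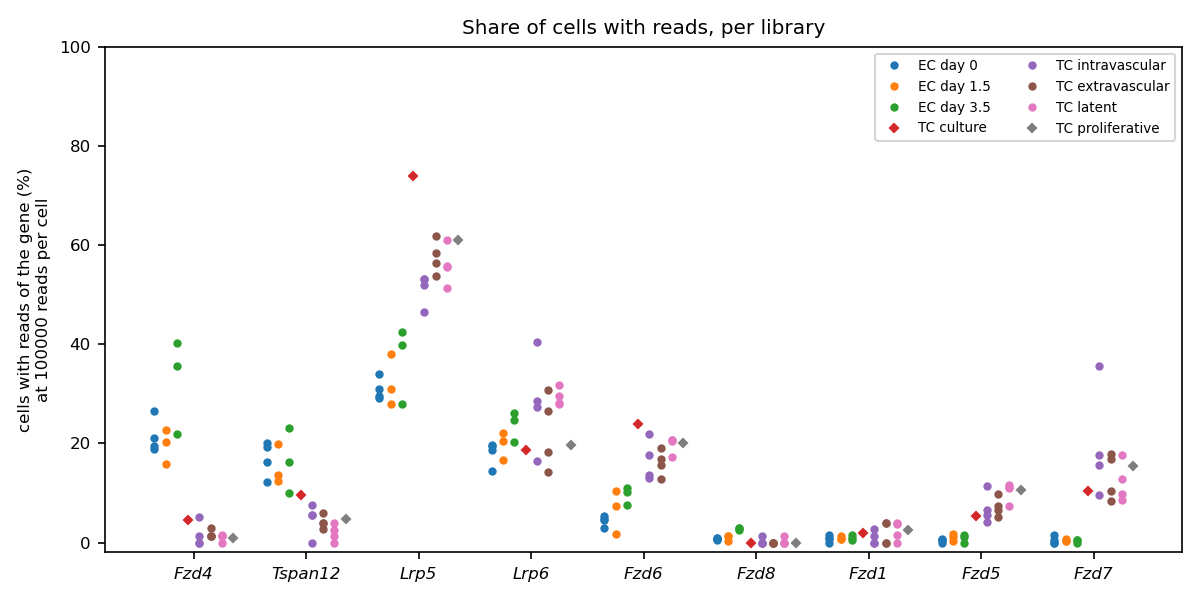
Share of cells with reads of each gene after thinning every cell to 100000 reads, per library, in percent. Points are animals or pools in the 3 EC and 5 TC groups. Lrp5 was the most widely read member, with group means of 30.9% to 36.7% of ECs and 51.3% to 74.0% of TCs, while Fzd4 reached 19.7% to 32.6% of ECs and at most 4.52% of TCs.

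The capillary classes were compared next, to ask in which ECs the receptor genes were read. Cells were assigned by the marker lists and score limits of the study, none of which contains a member, to 606 aCap, 1581 gCap, 133 large vessel and 24 cycling ECs, with 135 left unclassified. Reads of aCap and of gCap cells were summed for each of the 10 animals and compared with the animal as a block. The sums held 20.5 to 33.8 M reads in aCap and 45.6 to 81.8 M in gCap. Of 13435 genes tested by edgeR's quasi-likelihood test with Benjamini-Hochberg adjustment, 8.81% passed, of which 584 (4.35% of the genes tested) were higher and 600 (4.47%) lower in aCap. Of the members, 7 could be tested and 2 passed, Tspan12 higher and Lrp6 lower in aCap. DESeq2 called 6 members, where it called 22.8% of the same genes, and limma 4 of the 5 it could test, where it called 33.3% of 8686 genes. Fzd5 and Fzd7 had too few reads, in 10 aCap and 9 gCap cells and in 1 aCap and 9 gCap cells.

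Lrp6 was lower in aCap than in gCap. Its level in the 10 animals had a lowest value, median and highest value of 1.03, 3.58 and 20.8 CPM in aCap and of 18.0, 39.6 and 88.5 CPM in gCap. The aCap value was below the gCap value in 10 of 10 animals, although the ranges met because of m1, whose aCap level of 20.8 CPM was the highest. The log2 fold change was −3.04 ± 0.50 (SE, adjusted p = 0.00112, edgeR), against a median of −0.25 over all genes tested. Reads were found in 20.5% of aCap and 32.0% of gCap cells, and in 11.3% and 23.6% at 100000 reads per cell. By day the mean was 50.6, 33.5 and 50.2 CPM in gCap and 7.35, 2.73 and 5.15 CPM in aCap on days 0, 1.5 and 3.5.

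Tspan12 had the opposite distribution. Its lowest, median and highest values were 25.2, 53.0 and 179 CPM in aCap and 6.91, 26.0 and 39.0 CPM in gCap, and aCap was higher in 9 of 10 animals. The log2 fold change was 1.94 ± 0.47 (SE, adjusted p = 0.0184, edgeR). Reads were found in 41.1% of aCap and 17.3% of gCap cells, and at 100000 reads per cell in 30.7 ± 10.1% and 12.3 ± 3.24% (SD, n = 10), higher in aCap in 10 of 10 animals. Without the cell with the most Tspan12 reads in each library the fold was 1.83 ± 0.56 and the call was lost (adjusted p = 0.0605, edgeR). By day the mean was 65.8, 48.5 and 95.1 CPM in aCap and 20.5, 23.7 and 21.8 CPM in gCap.

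Fzd4, the partner of Tspan12, had higher values in gCap in every animal. Its lowest, median and highest values were 1.05, 39.6 and 61.7 CPM in aCap and 62.0, 96.3 and 235 CPM in gCap, so that the ranges did not overlap and aCap was lower in 10 of 10 animals. The log2 fold change of −1.47 ± 0.53 (SE) did not pass in edgeR (adjusted p = 0.117). It passed in DESeq2 (adjusted p = 0.0279) and in limma on the mean deposited log values (adjusted p = 1.45e-05). Of the edgeR fits that each left out 1 animal, it passed only without the day 0 animal m2 (−1.14, adjusted p = 0.0311, edgeR). It also passed without the cell with the most Fzd4 reads in each library (edgeR, −2.41 ± 0.58, adjusted p = 0.0173). That step takes a larger part of an aCap sum (34 to 89 cells) than of a gCap sum (121 to 200 cells). By itself this shifts a fold toward gCap. At 100000 reads per cell Fzd4 was found in 15.1% of aCap and 27.9% of gCap cells, higher in gCap in 10 of 10 animals. By day, gCap held 181 ± 68.5, 66.7 ± 5.39 and 121 ± 62.8 CPM and aCap 34.9 ± 24.4, 31.4 ± 17.9 and 42.3 ± 20.4 CPM (SD over 4, 3 and 3 animals).

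**Figure D3:**
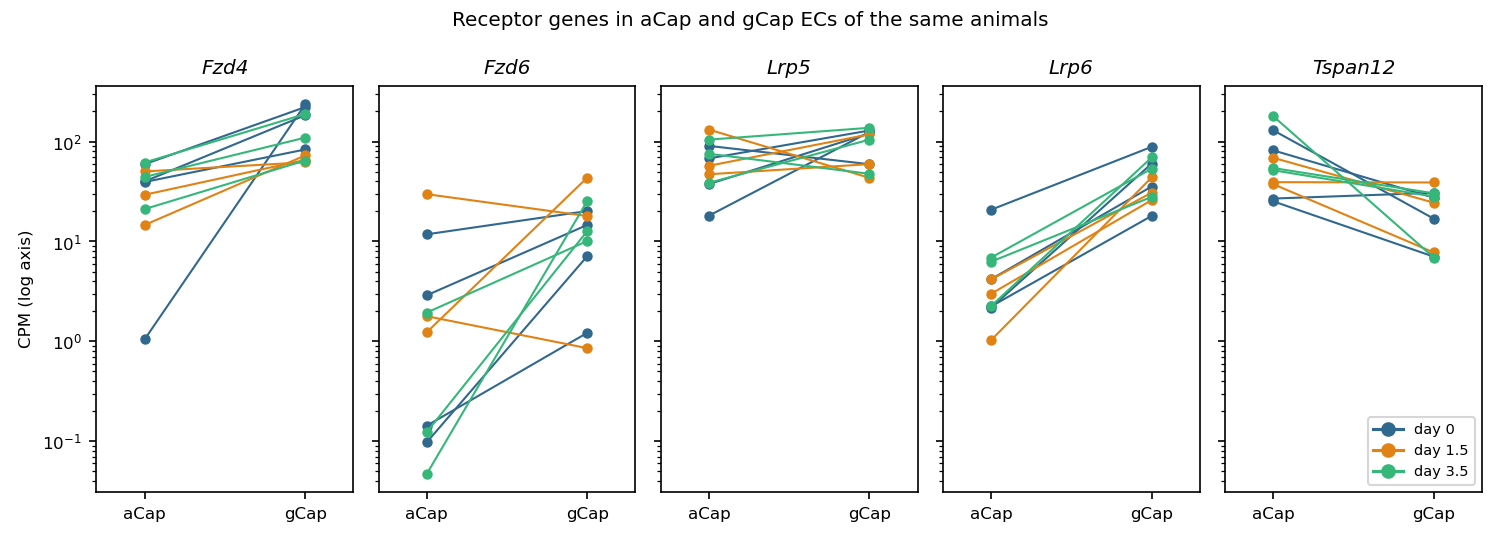
Levels of Fzd4, Fzd6, Lrp5, Lrp6 and Tspan12 in aCap and gCap ECs of the same animals, in CPM on a log axis. Each line joins 1 of the 10 animals and colours mark the days. Lrp6 and Fzd4 are lower in aCap in 10 of 10 animals, Tspan12 is higher in aCap in 9 of 10, and Lrp5 lines cross.

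Lrp5 was read in both classes. Its lowest, median and highest values were 18.1, 62.5 and 132 CPM in aCap and 43.3, 111 and 137 CPM in gCap, lower in aCap in 7 of 10 animals, with a log2 difference of −0.21 ± 0.40 (SE, adjusted p = 0.825, edgeR). Fzd6, Fzd1 and Fzd8 did not pass the test in edgeR. Fzd6 had medians of 1.51 CPM in aCap and 13.7 CPM in gCap and a log2 difference of −2.83 ± 1.14 (adjusted p = 0.167), which passed in DESeq2 (adjusted p = 0.00154) and without the cell with the most reads (edgeR, −5.14, adjusted p = 0.00924). Leaving out that cell has the limit given for Fzd4. Fzd1 and Fzd8 reached the 0.252 CPM minimum of the count filter in 3 and 4 of 10 aCap libraries and in 7 gCap libraries each, so no fold is given and their calls in DESeq2 are not read as differences. Fzd1 was read in 11 aCap and 20 gCap cells and, pooled over animals, was at 3.86 CPM in aCap, with 96.2% of the reads in 1 cell, and at 2.08 CPM in gCap. Fzd8 was read in 8 aCap and 26 gCap cells.

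Reads of Fzd4 and of its partners were then counted within single cells. Fzd4 with Lrp5 or Lrp6 was found in 14.9 ± 8.97% of aCap and 22.8 ± 6.58% of gCap cells (SD, n = 10), higher in gCap in 10 of 10 animals, and in 8.44% and 15.7% at 100000 reads per cell. Fzd4 with Tspan12 was found in 11.8 ± 5.93% of aCap and 7.77 ± 3.44% of gCap cells, higher in aCap in 9 of 10 animals, and in 6.76% and 4.64% after thinning. Cells with reads of Fzd4, Tspan12 and a co-receptor together numbered 45 of 606 aCap and 78 of 1581 gCap cells, and after thinning the share was higher in aCap in 5 animals and in gCap in 4. The 24 cycling ECs, pooled over animals, had a Fzd4 level of 219 CPM with reads in 41.7% of cells (153 CPM without the cell with the most reads), and 7.30 CPM of Lrp6. All came from days 1.5 and 3.5, with 10 from m11 and 7 from m7, so class, day and animal cannot be told apart. The 133 large vessel ECs had 88.2 CPM of Fzd4, 110 CPM of Lrp5, 34.7 CPM of Lrp6 and 40.3 CPM of Tspan12. Without the cell with the most reads of each gene these levels were 55.3, 64.6, 29.7 and 4.84 CPM.

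Marker sums of other cells were not alike in the classes. The 12 large vessel markers of the study summed to 12.6, 31.5 and 110 CPM in aCap (lowest, median and highest of 10 animals) and to 656, 952 and 1667 CPM in gCap. The 3 lymphatic genes summed to 32.4, 116 and 571 CPM in aCap and 318, 663 and 1321 CPM in gCap, with Prox1 at 0 in 9 aCap and 6 gCap libraries and Ccl21a at 0 in 8 and 7. The 10 immune genes had medians of 3.41 and 10.4 CPM, with Ptprc at 0 in 8 aCap and 5 gCap libraries, the 10 mural genes medians of 7.43 and 2.85 CPM, the platelet and red cell genes medians of 127 and 301 CPM and the alveolar genes medians of 12.6 and 19.8 CPM. The part of these in the results for Lrp6, Tspan12 and Fzd4 was not tested.

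Other genes of the pathway were read from lists of 72 genes, of which 42 entered the test between the classes. In edgeR 15 (35.7%, against 20.5% of all genes) were at an unadjusted p under 0.05. DESeq2 called 14 and limma 8, where these tools called 22.8% and 33.3% of all genes they tested. In edgeR 7 passed (16.7%, against 8.81% of all genes). Of these 7, Rspo3, Wif1, Nkd2 and Tcf7l1 reached the 0.252 CPM minimum in at most 3 of 10 libraries of their lower class. They entered the test through the class where they were high, so their levels are given without a fold, and nothing is read from the counts beside the shares of all genes. None of the other Frizzled genes was called, where 1 of 4 entered the test, Fzd3, which reached the minimum in 2 aCap and 9 gCap libraries and is given without a fold or p for the same reason. Of the other Wnt receptors, 1 of 3 tested was higher in aCap, Lrp4, a relative of Lrp5 and Lrp6 known from the neuromuscular junction and bone, with medians of 25.9 CPM in aCap and 2.18 CPM in gCap (log2 fold change 3.57 ± 0.96, adjusted p = 0.0311, edgeR). Of the receptor turnover genes, 1 of 4 tested was lower in aCap, Znrf3, a ubiquitin ligase that removes Frizzled from the membrane, with medians of 2.19 and 111 CPM (−4.38 ± 1.23, adjusted p = 0.0405). Of 5 tested secreted modulators, 2 were called. Rspo3, a ligand that neutralizes Znrf3, had medians of 13.0 CPM in aCap and 0.0143 CPM in gCap, with a highest gCap value of 20.9 CPM, and was at 0 in 4 gCap libraries. Wif1, a secreted Wnt inhibitor, was at 0 in 6 aCap libraries, at most at 0.124 CPM in the others, and had a gCap median of 6.99 CPM.

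Inside the cell, the genes called included the related Dishevelled antagonists Nkd1 and Nkd2. Nkd1 had medians of 188 CPM in aCap and 102 CPM in gCap and was higher in aCap in 10 of 10 animals (1.16 ± 0.20, adjusted p = 0.00201, edgeR). Nkd2 entered the test through gCap, and its medians of 0.0914 CPM in aCap and 28.0 CPM in gCap are a description. These were the 2 called of 17 cytoplasmic transducers tested. Of 8 nuclear transducers Tcf7l1, a TCF factor known mainly as a repressor, was called, with medians of 0.0442 CPM in aCap and 7.21 CPM in gCap. None of the 4 genes of receptor maturation tested passed. Without the block on the animal, Lrp4 (adjusted p = 0.0511), Znrf3 (0.210), Rspo3 (0.174) and Tcf7l1 (0.141) were no longer called in edgeR. Leaving out single animals also ended the call of Lrp4 (m1, m3, m6, m9 or m10, adjusted p 0.0595 to 0.0658), of Znrf3 (m1, m2, m3, m4, m7, m9 or m10, 0.0770 to 0.0964) and of Tcf7l1 (m4 or m11, 0.0558 and 0.0596).

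**Figure D4:**
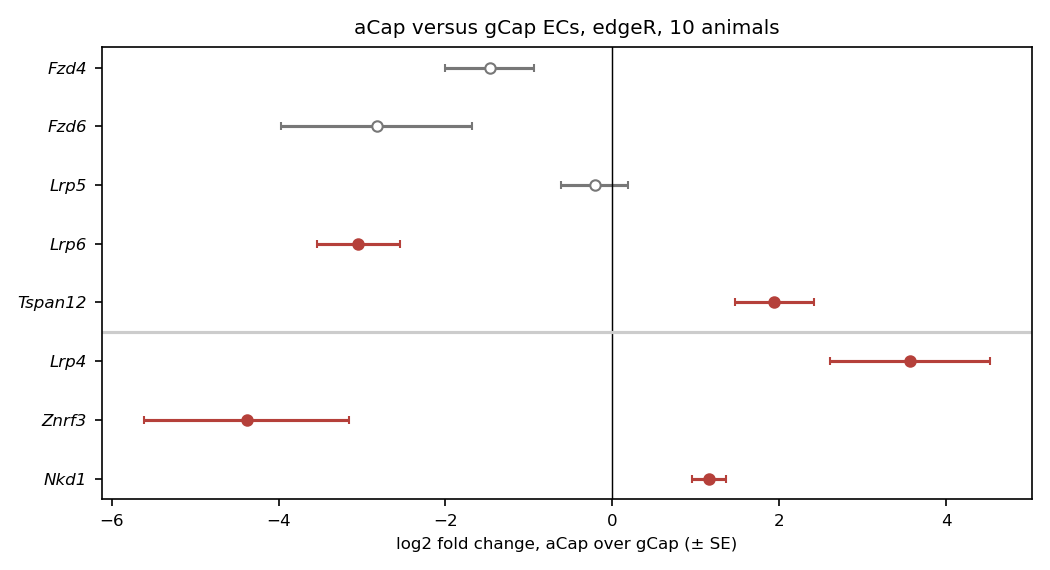
Log2 fold change of aCap over gCap ECs with its standard error for the 5 members and the 3 called genes of the pathway lists that were above the minimum of the count filter in most libraries of both classes. Filled red points passed an adjusted p of 0.05 in edgeR. Lrp6 and Tspan12 lie on opposite sides of 0, and the pathway genes shown reach from −4.38 for Znrf3 to 3.57 for Lrp4.

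In TCs the corresponding test split each library by the cell cycle, to ask whether receptor genes moved with division. The 13 libraries of injected cells gave 891 cycling and 306 noncycling cells by the summed S and G2/M score, compared with the library as a block. Of 13104 genes 5.11% passed in edgeR, 463 (3.53%) higher and 206 (1.57%) lower in cycling cells. Fzd1, Fzd4 and Fzd8 did not pass the count filter and were not tested. None of the 6 members tested passed in edgeR. At an unadjusted p under 0.05 there was 1 member, Tspan12, and DESeq2 called that 1, where it called 12.2% of the same genes, whereas limma, in which Tspan12 could not be tested, called none of 5 members and 24.5% of 12071 genes. Lrp5 differed by −0.15 ± 0.13 (SE), Lrp6 by −0.20 ± 0.31, Fzd5 by 0.22 ± 0.70, Fzd6 by 0.36 ± 0.45 and Fzd7 by 0.35 ± 0.58 on the log2 scale. Tspan12 differed by 2.24 ± 0.84 (adjusted p = 0.146 in edgeR and 0.0170 in DESeq2) and was higher in the cycling part of 9 of 13 libraries, among them 4 of 4 intravascular, 3 of 4 extravascular and 1 of 4 latent libraries. Its cycling and noncycling medians were 1.57 and 0 CPM in intravascular, 1.86 and 0.0561 CPM in extravascular and 0.277 and 0.458 CPM in latent libraries. With noncycling medians at or near 0 in intravascular and extravascular libraries, the fold and the DESeq2 call are not read as a difference. None of 36 pathway genes tested passed in edgeR, with 5 (13.9%, against 17.8% of all genes) at an unadjusted p under 0.05, 4 called in DESeq2 and 4 in limma, with those tools' shares over all genes as above.

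Between the TC groups, pathway genes passed in 1 comparison. Of 58 tested, 6 (10.3%, against 8.57% of all genes) were called between latent and extravascular cells in edgeR. At an unadjusted p under 0.05 there were 15 (25.9%, against 23.4%). DESeq2 called 8 and limma 14, where these tools called 14% and 42.8% of all genes they tested. The lists were chosen with results over the TC groups known, and of the 6 Nkd1 entered the test through latent cells alone. The tests below are therefore a description, and nothing is read from the counts. Sfrp1, a secreted Wnt binder, was at 10.5 ± 1.53 CPM in extravascular and 21.9 ± 4.90 CPM in latent cells (SD, n = 4, log2 fold change 0.92 ± 0.26, adjusted p = 0.0411, edgeR). Notum, an enzyme that removes the lipid of Wnt ligands, was at 2.45 ± 1.57 and 13.9 ± 5.21 CPM (2.36 ± 0.65, adjusted p = 0.0413, edgeR). These were 2 of 11 secreted modulators tested, both higher. Of 6 maturation genes, Mesd, the chaperone of Lrp5 and Lrp6, was lower at 102 ± 14.7 and 71.6 ± 9.16 CPM (−0.64 ± 0.14, adjusted p = 0.0122, edgeR), and Tmem59, a membrane protein that alters Frizzled glycosylation and clustering, was higher at 125 ± 14.5 and 214 ± 36.8 CPM (0.63 ± 0.15, adjusted p = 0.0192, edgeR).

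Tcf7l2, a main nuclear partner of beta-catenin in epithelium, was at 19.2 ± 3.96 CPM in extravascular and 42.0 ± 9.15 CPM in latent cells (SD, n = 4, log2 fold change 1.00 ± 0.22, adjusted p = 0.0110, edgeR), 1 of 8 nuclear transducers tested. Of 19 cytoplasmic transducers Nkd1 was called, on levels of at most 0.0224 CPM in extravascular cells and of 0.0222, 0.0573, 2.91 and 0.533 CPM in latent cells of m10, m11, m12 and m9. No extravascular library reached the count filter's minimum of 0.231 CPM for it, so no fold is given, and without latent m12 it was not called (adjusted p = 0.1999, edgeR). Leaving out single libraries also ended the calls of Sfrp1 (7 of 8 libraries, adjusted p 0.0560 to 0.115), Notum (6 of 8, 0.0613 to 0.111), Nkd1 (6 of 8, 0.0671 to 0.1999) and Tmem59 (extravascular m5 and latent m10, 0.0511 and 0.0546), but not those of Mesd and Tcf7l2. In limma on the mean log values Mesd was not called (adjusted p = 0.664).

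Latent libraries m12 and m9 stood apart in the markers of other cells. Their 10 immune genes summed to 155 and 252 CPM, against 4.53 to 5.43 CPM in the other latent libraries and 2.55 to 11.3 CPM in extravascular cells, and their 8 endothelial genes to 62.9 and 52.8 CPM, the highest of all TC libraries. All 8 endothelial genes were detected in both, and Nkg7 was at 0. The same 2 libraries held most Nkd1 reads of latent cells. With both left out, a choice made after seeing the data, edgeR called 816 genes and 1 of 56 pathway genes, Tmem59 (0.76 ± 0.17, adjusted p = 0.0324). Nkd1 was then not tested, and with 2 of 4 latent libraries left Sfrp1 (0.61 ± 0.29, adjusted p = 0.325), Notum (2.04 ± 0.79, 0.215), Mesd (−0.62 ± 0.17, 0.0707) and Tcf7l2 (0.70 ± 0.25, 0.178) kept the sign of their differences without passing. The Tspan12 difference was −2.30 ± 0.93 and the Lrp5 difference −0.09 ± 0.24 (SE). The part of the other cells in these results was not tested.

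In the other group comparisons 0 pathway genes passed in edgeR. For day 1.5 against day 0, 8 of 55 (14.5%, against 8.09% of all genes) were at an unadjusted p under 0.05, with 2 called in DESeq2 and 0 in limma, and for day 3.5 against day 0 these counts were 5 (9.09%, against 8.76%), 4 and 2. For extravascular against intravascular cells they were 9 of 58 (15.5%, against 17.6%), 3 and 5, and for latent cells against the proliferative pool 1 (1.72%, against 5.08%), 0 and 0. The DESeq2 and limma shares over all genes are those given with the members, 2.05% and 3.51% on day 1.5, 2.7% and 5.05% on day 3.5, 6.89% and 16.6% for extravascular against intravascular cells, and 0.462% and 1.09% for latent cells against the pool. The pool is assumed there to vary like the other gates.

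The genes whose levels ran most like those of Fzd4 over the 10 EC animals, by Spearman's rho of CPM among 8225 genes with a mean of at least 10 CPM, were Trip4 (0.95), Desi2 (0.94), Atp5d (0.93), Zfp398 (0.93) and Polr3gl (0.92). For Lrp5, the member highest per kilobase in TCs, the same measure over 12 TC animal libraries and 6358 genes gave Ganab (0.95), Stx7 (0.93), Dedd (0.92), Gsk3b (0.92) and Entr1 (0.92). Gsk3b encodes a kinase of the beta-catenin destruction complex. The animals share days or gates, sort and depth, and these values are a description.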

How the data were processed

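ECs and TCs were sequenced as single cells by a modified SMART-Seq2 protocol without molecular identifiers. The authors quantified transcripts with Salmon 0.7.2 on GRCm38 and deposited estimated counts per gene and cell, and a second table of log10 values per kept cell. The deposited log10 values were scaled by the authors to housekeeping genes (8 of the 11 named were found) with a factor of 10000. The kept cells (2479 of 3455 ECs and 1566 of 1920 TCs, minima stated at 1000 and 2500 genes) were taken from these tables, and 0 columns of cells lacked a sample. Kept cells of an animal, and class or cycle part, were summed, and expected counts were rounded to whole numbers. edgeR 4.0.16 quasi-likelihood tests (TMM, filterByExpr) were run in R 4.3.3 over all genes, with DESeq2 1.42.0 and limma 3.58.1 as alternatives. The SE given with an edgeR fold is the absolute log2 fold divided by the square root of the quasi-likelihood F statistic. Cell scores used Seurat 5.3.0, with a large vessel score above 1, a cycling score above 0.5, and aCap or gCap by scores against 0 and −0.5. Thinning left out cells below 100000 reads. Animals are separate mice, and cells are not replicates.

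Members and lists were chosen with earlier results of these data known. All 9 members are named in every comparison, and of the pathway lists each called gene, at most 4 per list and comparison. The classes follow the study's markers and limits, and doublets were treated only by the authors' cell filters and the sort. Scripts were tested on simulated counts. Extravascular and intravascular fractions of the same number come from the same mouse, and the correlations of their deviations from the group means over 6839 genes were 0.249, 0.0757, 0.0661 and −0.0363. The library protocol does not mark strand, and Fzd5, Fzd6 and Tspan12 overlap the gene models Gm38058, Gm26704 and Gm30270.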

Additional observations from a re-analysis of the deposited data

Results flagged for a closer look

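Of 53 groups of 4 to 10 libraries examined for a member's level, 12 had a highest or lowest library far from the nearest other by Dixon's criterion. By chance this flags about 1 in 20 groups of normally distributed values. Many levels here were at or near 0 or set by 1 cell, so the number flagged is not set against that rate. In whole libraries these were Fzd1 in extravascular TCs (m8 at 2.28 CPM, next 0.208), Fzd5 in day 0 ECs (m2 at 13.9 CPM, next 0.0729), Fzd7 in day 0 ECs (m1 at 3.69 CPM, next 0.0365), Fzd8 in intravascular TCs (m5 at 2.08 CPM, the others at 0), Fzd8 in latent TCs (m10 at 0.156 CPM, the others at 0) and Lrp5 in latent TCs (m12 lowest at 32.0 CPM, next 35.8). In aCap ECs of the 10 animals they were Fzd1 (m6 at 40.0 CPM, next 0.478), Fzd6 (m7 at 29.7 CPM, next 11.8), Fzd7 (m1 at 11.8 CPM, the others at 0), Fzd8 (m11 at 35.3 CPM, next 4.10) and Lrp6 (m1 at 20.8 CPM, next 6.90). In gCap ECs Fzd5 stood apart (m2 at 22.9 CPM, next 7.29).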

How the results depend on the processing

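DESeq2 called more genes than edgeR, namely 360 and 475 for days 1.5 and 3.5 against day 0, 1326 for extravascular against intravascular, 2699 for latent against extravascular, 89 for latent against proliferative, 3059 for aCap against gCap and 1597 for cycling against noncycling, where edgeR called 0, 0, 183, 1650, 0, 1184 and 669. At an unadjusted p under 0.05 the comparisons with 0 calls had 1422, 1541 and 977 genes. Limma on mean log10 values called 303, 436, 2019, 5190, 132, 2896 and 2955 in the same order. With all cells at the stated gene minimum each day comparison had 1 call. Without latent m9 and m12, added after seeing the data, latent against extravascular had 816 calls.

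With the replicate block (the mouse), extravascular against intravascular had 1 call, with both gates fitted alone 34, and with no replicate block in those gates 63. A block by label number could not be run for EC days and the proliferative cells could not be split, since the count columns carry no such number. Without the block, 1078 genes were called between the capillary classes and 777 between cycling and noncycling cells, and the members called between the capillary classes were Lrp6 and Tspan12 with and without the block.

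Leaving out 1 library gave 0 to 1 calls for each day comparison (1 without day 0 m2 in both, and on day 3.5 also without m1 or m10) and 8 to 518 calls for extravascular against intravascular, from 8 without extravascular or intravascular m8 to 518 without extravascular m5. The sign of the aCap difference of Lrp5 turned without m2 (0.014, range −0.44 to 0.014). Between cycling and noncycling cells the sign turned for Fzd5 (−0.12 with no block, −0.063 to 0.54 leaving out 1 library, below 0 without extravascular m8, −0.063, intravascular m7, −0.045, or latent m12, −0.018), Fzd7 (−0.13 with no block), Lrp5 (0.43 in limma, 0.028 without cells near the score limit) and Lrp6 (0.28 in limma). The cause was not tested. Shares of cells moved in 95 of 144 alternatives, and levels in 29 of 144. Moved means by at least 1 SD over animals or, for the proliferative and culture pools, outside the narrower 95% counting interval of the pool. Members read in few cells, Fzd1, Fzd5, Fzd7 and Fzd8 in ECs, are limited by 1 cell holding most reads.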
